A study of Mus musculus with 12 samples.

Results

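The regions described here are the peaks of 2 control libraries, control 1 and control 2, on chromosomes 1 to 19. They number 899, of which 739 were called in control 1 and 160 in control 2, out of 46148 peaks on these chromosomes in the 6 lists of the study. The study sequenced DNA recovered with an antibody against MACF1, which connects the actin and microtubule networks, from the mouse osteoblast line MC3T3-E1. The 12 samples were 3 knockdown immunoprecipitates, 3 knockdown inputs, 3 control immunoprecipitates and 3 control inputs, each group carrying the library labels 1, 2 and size3. All libraries were genomic DNA of this 1 cell line. Knockdown samples had the genotype MACF1 knockdown and control samples the genotype Control; neither the method of the knockdown nor the nature of the control is given in the sources used here. Inputs had no antibody, and the immunoprecipitates shared 1 antibody, listed with more than 1 lot. Whether each library had a culture of its own is not stated, so a p-value between groups measures only the spread between these libraries, which may be technical.

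In chromatin immunoprecipitation an antibody recovers DNA fragments bound by its target, and a peak is a stretch with more fragments than the input, which is sonicated DNA taken before the antibody step. The peak caller estimates a background for each peak from the input near it and from the mean over the whole genome, and uses the larger. MACF1 is known mainly as a cytoplasmic protein that takes part in Wnt signalling and in cell movement. Satellite repeats near the centromeres, which lie at the low-numbered end of mouse chromosomes, are known to collect reads in many such experiments.

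Few of these regions touched the start of a gene, and the promoter sequences they reached are shown for that reason. Of 31396 RefSeq promoter windows (GRCm38.p6, 250 bases before to 50 after a transcription start), members overlapped 2. The promoter of the protein-coding gene 4931408C20Rik, at chr1:26687411-26687710 on the minus strand, lay within a control 2 peak of 237 reads whose summit was outside the window and which knockdown size3 also called. That of the long non-coding RNA gene Gm41835, at chr19:33074951-33075250 on the minus strand, lay within a control 1 peak of 30 reads whose summit was inside it. Capitals mark the 50 bases from the transcription start on, and both sequences run 5′ to 3′.
4931408C20Rik: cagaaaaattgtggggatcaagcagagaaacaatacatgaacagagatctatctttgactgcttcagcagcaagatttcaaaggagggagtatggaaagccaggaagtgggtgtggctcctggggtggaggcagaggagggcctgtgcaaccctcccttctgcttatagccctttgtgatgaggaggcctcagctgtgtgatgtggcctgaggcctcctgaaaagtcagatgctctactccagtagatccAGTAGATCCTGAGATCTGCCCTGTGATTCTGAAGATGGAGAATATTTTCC
Gm41835: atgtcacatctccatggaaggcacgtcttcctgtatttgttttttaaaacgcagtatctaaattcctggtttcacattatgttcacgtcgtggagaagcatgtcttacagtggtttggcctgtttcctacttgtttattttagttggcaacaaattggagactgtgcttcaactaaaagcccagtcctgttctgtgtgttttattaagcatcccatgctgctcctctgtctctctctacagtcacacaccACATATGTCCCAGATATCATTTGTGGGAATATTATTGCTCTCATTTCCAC
The first window had 49.7% G and C and 0 CpG dinucleotides, and the second had 41% and 4, against medians of 53% and 7 over all windows. A window was overlapped by 14.5% of peaks in knockdown 1 (95% Wilson interval 14.1 to 15.0), 0.273% in knockdown 2 (0.156 to 0.476) and 8.85% in knockdown size3 (8.44 to 9.28). The share was 0.135% in control 1 (0.0239 to 0.762), 0.625% in control 2 (0.110 to 3.45) and 2.41% in control size3 (1.85 to 3.14). Control 1, control 2 and knockdown 2 were thus the lists with few peaks at annotated starts. These intervals, and all others given here for shares, cover counting error only.

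Control 1 and control 2 were the deepest immunoprecipitates and had the shortest lists. They held 26196138 and 33085606 reads after duplicate removal, and the other 4 held between 5575205 and 18454330. Peaks on chromosomes 1 to 19 numbered 21145, 4402 and 17507 in knockdown 1, 2 and size3, and 739, 160 and 2195 in control 1, 2 and size3. Mean log2 peak number was 13.52 ± 1.24 in knockdown and 9.32 ± 1.90 in control libraries (SD, n = 3 each), a difference of 4.21, and the lowest knockdown library lay above the highest control library (p = 0.1 in an exact two-sided permutation test, adjusted p = 0.2 over 2 tests). That p is the smallest that 3 against 3 libraries allow. The redundant rate, the share of reads removed as duplicates, was 0.51, 0.65 and 0.02 in the knockdown and 0.25, 0.16 and 0.01 in the control immunoprecipitates, and its part in the difference was not tested. The caller's false discovery rate, which it estimates by exchanging immunoprecipitate and input, was 100% for 738 of the 739 control 1 peaks and for all 160 control 2 peaks.

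The peaks of both lists were mostly weak and lay close to the calling threshold. The caller's score grows as its p-value falls (log10 of p, times 10, with its sign changed), and the p cutoff of 1e-05 sets its minimum at 50. In control 1 the score ran from 50.0 over a median of 56.6 to 2432, and 43 peaks (5.82%) reached 100. In control 2 it ran from 50.1 over 59.6 to 778, and 25 peaks (15.6%) reached 100. The median peak had 28 reads over 731 bp in control 1 and 43.5 reads over 910 bp in control 2.

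Most fold enrichments fell on a ladder of evenly spaced values. A fold is the reads at the summit over the background, and when the background is the genome-wide mean it can only be a whole number of reads divided by that mean. From the read numbers, fragment length and genome size in the file headers, this mean was 2.80 reads in control 1 and 2.83 in control 2, which makes the steps 0.357 and 0.353. Within the rounding of the deposited values (0.005), 621 of the 739 control 1 peaks (84.0%, 95% Wilson interval 81.2 to 86.5) lay on a step, and 100 of the 160 control 2 peaks (62.5%, 54.8 to 69.6). Control 1 had 135 peaks at a fold of 5, 125 at 5.35 and 100 at 4.64. Over all 621 control 1 peaks on a step, the median was 15 reads at the summit. The share on a step was 11.6%, 62.6% and 19.3% in knockdown 1, 2 and size3, and 52.5% in control size3. Most members were therefore called against the mean over the genome and not against a higher local level of their input.

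**Figure D1:**
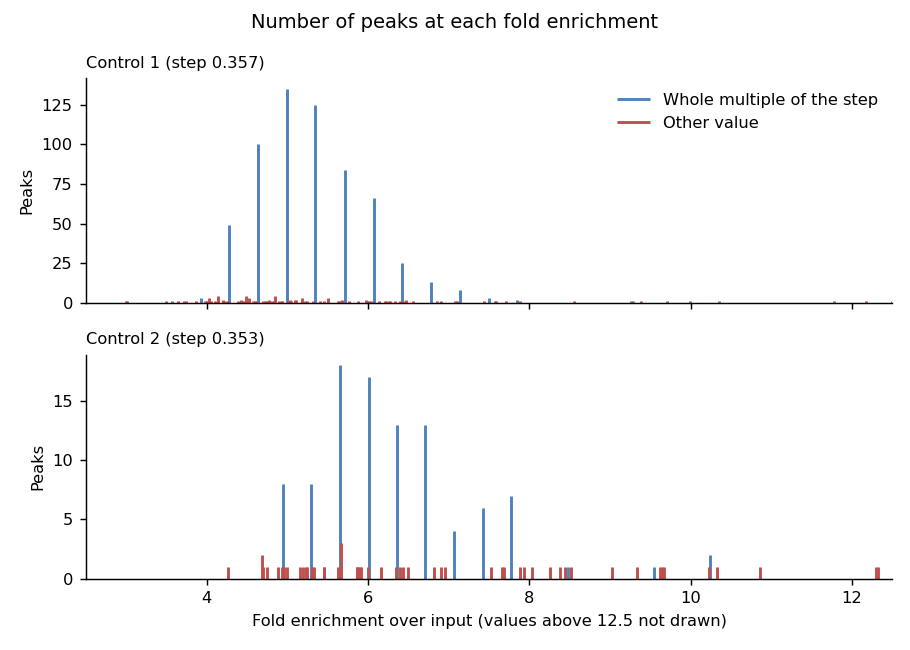
Number of peaks (y axis) at each deposited fold enrichment over input (x axis) in control 1 and control 2, with values at a whole multiple of the list's step in blue and others in red. In control 1, 621 of 739 peaks stand on a step of 0.357, and in control 2, 100 of 160 on a step of 0.353.

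Peaks were far from evenly spread over the chromosomes, and in both lists chromosomes 5, 6 and 19 were dense and chromosomes 7 and 8 nearly empty. Chromosome 6 held 184 control 1 peaks and 33 control 2 peaks, 24.1% of the 899 members on 6.08% of the sequence up to the last annotated genes. Chromosome 5 held 124 and 25, and chromosome 19 held 74 and 10. Chromosomes 7 and 8 held 2 control 1 peaks each and no control 2 peak. Density in control 1 was 1.23 peaks per Mb on chromosome 6, 1.21 on chromosome 19 and 0.817 on chromosome 5, and it was 0.0138 on chromosome 7 and 0.0155 on chromosome 8. Chromosomes 17 and 10, with 0.738 and 0.643 peaks per Mb in control 1, came next, and no other chromosome passed 0.244. Chromosome 15 was as empty as chromosomes 7 and 8, with 1 control 1 peak, in Wdr70, and no control 2 peak. Chromosomes 13 and 14 were nearly so, with 3 control 1 peaks each (0.0249 and 0.0241 per Mb) and 1 and 0 control 2 peaks.

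The density on chromosomes 5, 6 and 19 together was 72.3 times that on chromosomes 7 and 8 together in control 1 (382 against 4 peaks, exact 95% interval 28.0 to 267). In control 2, with 68 peaks against 0, the ratio had an exact 95% lower limit of 13.6 and no upper limit. It was 17.2 with 3 peaks, the limit that a count of 0 allows for both chromosomes together, in place of the 0. Control size3, which shared 1 peak with each of these lists, had a ratio of 8.58 (6.71 to 11.1). The ratio was 0.996 in knockdown 1 (0.947 to 1.05), 2.73 in knockdown 2 (2.38 to 3.15) and 1.396 in knockdown size3 (1.32 to 1.48), so all 3 knockdown libraries lay below all 3 control libraries. In control 1 and control 2 the share of peaks on chromosomes 5, 6 and 19 was larger among weak peaks. Of peaks with a score of at least 100, 9 of 43 in control 1 (20.9%) and 4 of 25 in control 2 (16%) lay there. The shares were 53.6% and 47.4% of the weaker peaks, and these chromosomes make up 14.7% of the annotated length. However, 15 of the 43 and 12 of the 25 strong peaks lay near the start of a chromosome or in a block of chromosome 2. Both are sequence of a kind known to collect reads in many experiments. The shares of strong peaks without such places were not calculated. In control size3, 11 of the 21 peaks with a score of at least 100 (52.4%) lay on chromosomes 5, 6 and 19. None of the strong peaks of these 3 lists lay on chromosomes 7 and 8, so at this score their ratios have only a lower bound. The chromosomes were named with these counts known, so the ratios are a description and no test was made. Over the 19 chromosomes, the density in control 1 had a Spearman rho of 0.40 with knockdown 1, 0.71 with knockdown 2, 0.56 with knockdown size3, 0.93 with control 2 and 0.78 with control size3. Chromosomes are not replicates. Each has the same base composition in every library, and its part in these correlations was not tested. The copy number of the chromosomes in this line was not analysed here.

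**Figure D2:**
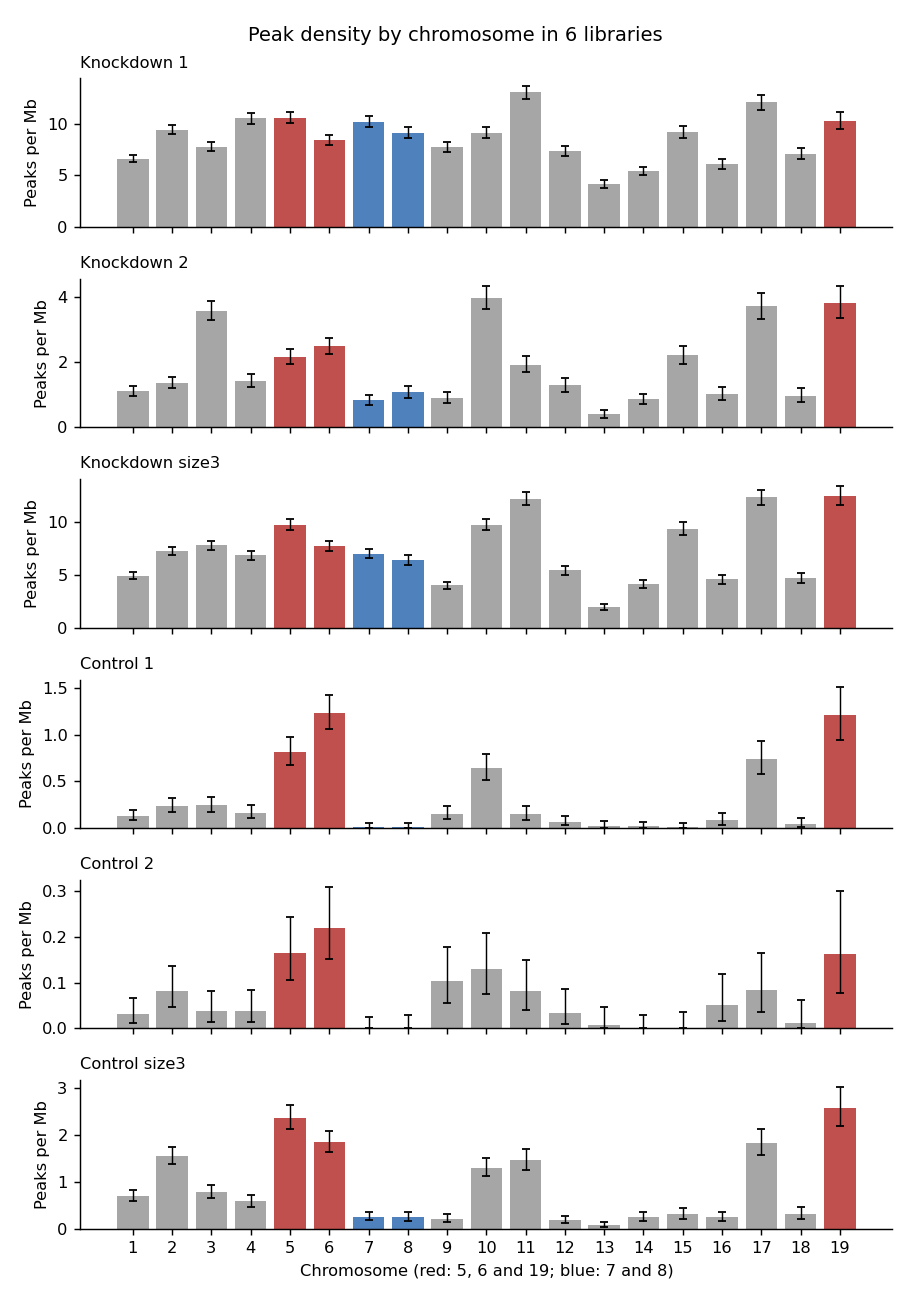
Peaks per Mb (y axis, a scale of its own for each library) on chromosomes 1 to 19 (x axis) in 3 knockdown and 3 control libraries; bars are counts over the length up to the last annotated gene and lines are exact 95% Poisson intervals, which cover counting error only. Chromosomes 5, 6 and 19 (red) stand above 7 and 8 (blue) in the 3 control libraries, knockdown 2 and knockdown size3. The density ratio is 0.996 in knockdown 1, 2.73 in knockdown 2 and 1.396 in knockdown size3.

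Over chromosomes 1 to 19 most members stood alone, and chromosomes 5 and 6 also held some taller peaks. Of 257 windows of 10 Mb, 154 held a member, and the fullest, at 60 to 70 Mb on chromosome 6, held 35 control 1 and 8 control 2 peaks. When members less than 100 kb apart were joined, 712 clusters resulted, of which 604 (84.8%) were single peaks. The 3 highest folds on chromosome 6 were 23.2 and 21.9 in Chl1 and 9.99 in Tra2a. On chromosome 5 they were 13.6 near Gm30417, 13.2 near Speer4cos and 11.8 in Speer8-ps1. The 3 highest folds on chromosome 19 were 7.14 in Ifit1bl1, 6.78 in a region 93047 bp from Gm35697 and 6.71 in Slc16a12. On chromosomes 7 and 8 all 4 peaks were in genes and came from control 1: Ccdc81 with a fold of 5.35, Xylt1, a proteoglycan xylosyltransferase gene, with 5, Ank1, an ankyrin gene, with 6.23, and Galntl6 with 5. The Ank1 peak, with 43 reads, was the only 1 of these 4 that overlapped a knockdown 2 peak.

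Control 1 and control 2 called few places in common. Of the 739 control 1 peaks, 43 (5.82%, 95% Wilson interval 4.35 to 7.75) overlapped a control 2 peak by at least 1 bp, and 44 of the 160 control 2 peaks (27.5%, 21.2 to 34.9) overlapped a control 1 peak. Among the 45249 peaks of the other 4 lists, 0.122% overlapped a control 2 peak and 0.133% a control 1 peak. Most of these were knockdown 2 peaks: of its 4402, 51 (1.16%) overlapped a control 2 peak and 56 (1.27%) a control 1 peak. In knockdown 1, knockdown size3 and control size3 neither share passed 0.0456%. Merging the members gave 855 regions, of which 43 were called in both libraries, 696 in control 1 alone and 116 in control 2 alone.

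Fewer of the regions called in both libraries than of the single ones lay on the dense chromosomes. Chromosomes 5, 6 and 19 held 7 of the 43 (16.3%), against 375 of the 696 control 1 regions (53.9%) and 61 of the 116 control 2 regions (52.6%) called alone. Of the 43, 15 lay in the first 3.5 Mb of a chromosome, 10 of them on chromosome 9, and 3 in a block of chromosome 2 from 98661874 to 98665644, sequence of a kind known to collect reads in many experiments, against 9 of 696 and 3 of 116 such places among the single regions. The 7 regions on chromosomes 5, 6 and 19 were all among the 25 of the 43 outside such places. In control 1, peaks called in both libraries had a median of 89 reads and a score of at least 100 in 69.8%, and those called in control 1 alone had a median of 28 reads and reached 100 in 1.87%. In control 2 the same shares were 47.7% and 3.45%, with medians of 117 and 41 reads. On a step of the fold ladder lay 27.9% of the control 1 peaks called in both libraries and 87.5% of those called in control 1 alone, and in control 2 the shares were 22.7% and 77.6%.

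Knockdown 2 held most of the places that both controls called. Of the 43 regions, 36 (83.7%, 95% Wilson interval 70.0 to 91.9) overlapped a knockdown 2 peak, against 13 of the 696 control 1 regions (1.87%, 1.09 to 3.17) and 6 of the 116 control 2 regions (5.17%, 2.39 to 10.8) called alone. By peaks, 49 of the 739 in control 1 (6.63%, 5.05 to 8.66) and 43 of the 160 in control 2 (26.9%, 20.6 to 34.2) did so, and 0.181% of the 40847 peaks of knockdown 1, knockdown size3 and control size3. With the other 2 knockdown libraries the members shared almost nothing. Knockdown 1, with 21145 peaks over 1.23% of the annotated length, overlapped 0 of the 739 control 1 peaks, which allows a share of up to 0.406%, and 1 of the 160 control 2 peaks, in Cfap43. Knockdown size3 overlapped 3 control 1 and 2 control 2 peaks.

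**Figure D3:**
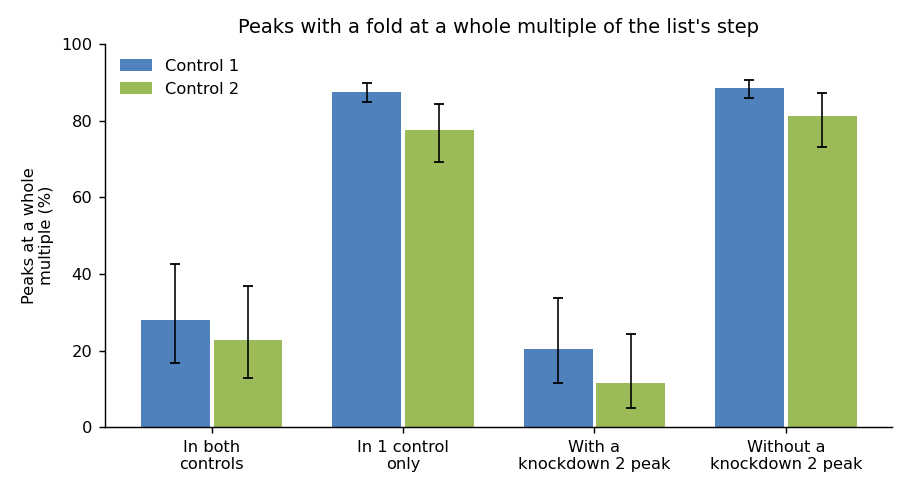
Share of peaks whose fold is a whole multiple of the list's step (y axis, %) for control 1 (blue) and control 2 (green), by whether the other control or knockdown 2 called the place; lines are 95% Wilson intervals for counting error. Peaks called in both controls are at 27.9% and 22.7%, and peaks called in 1 control are at 87.5% and 77.6%.

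At the 36 regions common to knockdown 2, control 1 and control 2, reads stood well above the usual peak of each list. Where a list had more than 1 peak in a region, the peak with the highest fold was taken. The median was 84 reads in knockdown 2, where the list's median peak had 9, 119.5 in control 1 and 126 in control 2, where it had 28 and 43.5. Of the 36, 18 lay in the first 3.5 Mb of a chromosome or in the chromosome 2 block, with medians of 201.5 reads in knockdown 2, 175.5 in control 1 and 192 in control 2. The 18 elsewhere had medians of 42 reads in knockdown 2, 79.5 in control 1 and 84.5 in control 2. The fold of the strongest peak was above the list's own median at 31 regions in knockdown 2, 29 in control 1 and 29 in control 2. It passed the 95th percentile of the list at 22, 18 and 7 regions in the same order. Neither reads nor folds are compared between lists, which differ in depth and background. The 65 knockdown 2 peaks that overlapped a member had a median width of 465 bp and a false discovery rate of at most 5% in 26 (40%), against 358 bp and 9 of 4337 (0.208%) for the other knockdown 2 peaks. These 65 include peaks near chromosome starts and in the chromosome 2 block, and the 40% was not calculated without them. Among the 36 regions, the rate was at most 5% at most of those in such places and above 5% at most of those elsewhere.

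**Figure D4:**
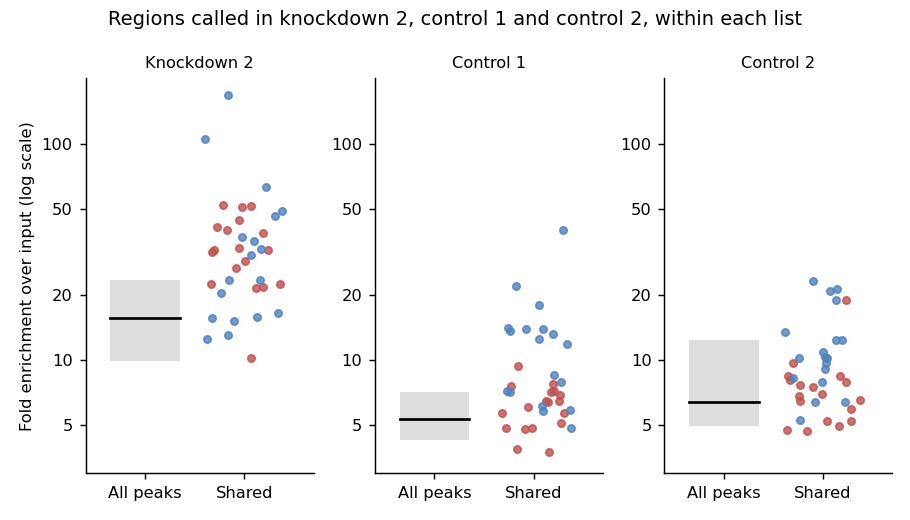
Fold enrichment over input (y axis, log scale) within the lists of knockdown 2, control 1 and control 2: the grey bar spans the 5th to 95th percentile of all peaks with a line at the median, and points are the 36 regions called in all 3 lists, in the first 3.5 Mb of a chromosome or in the chromosome 2 block in red and elsewhere in blue. The points lie above the list's median at 31, 29 and 29 regions.

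The 10 regions with the best mean rank in both controls included places in Emp2, Chl1 and Dock2. Their reads are not scaled for depth: knockdown 2 had 5575205 reads in all, control 1 had 26196138 and control 2 had 33085606. Where a list had more than 1 peak in a region, reads are those of the peak with the highest fold. Emp2, which encodes a tetraspan membrane protein (chromosome 16, 10283972 to 10286100), had 20 reads in knockdown 2, 431 in control 1 and 127 in control 2. A second control 2 peak in this region had 139 reads at a lower fold, and knockdown 2 also had 2 peaks there. Chl1, which encodes a neural adhesion molecule of the L1 family (chromosome 6, 103648937 to 103649771), had 273 reads in knockdown 2, 255 in control 1 and 269 in control 2. Dock2, a gene for a Rac activator of white blood cells, held 2 regions on chromosome 11. That at 34544354 to 34545141 had 58 reads in knockdown 2, 63 in control 1 and 53 in control 2, and that at 34681512 to 34682668, outside the 10, had 87, 149 and 160 reads in the same order. The predicted gene 2210408I21Rik (chromosome 13, 77438518 to 77439378) had 64 reads in knockdown 2, 57 in control 1 and 65 in control 2. On chromosome 5, regions near Gm30417 (3489 bp away) and Speer4cos (7947 bp away) were among them; Speer genes form a multicopy family in rodents, so reads may be shared between copies. The other 4 of the 10 were the second Emp2 region and regions in Gm52725 and nearest to Dpy19l2 and Fam171a1. All 10 had a knockdown 2 peak.

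The 7 regions called in both controls and not in knockdown 2 had folds from 4.14 to 9.28 in control 1 and from 5.46 to 10.2 in control 2, and the 36 with a knockdown 2 peak ran from 3.74 to 39.6 and from 4.69 to 23.2. They are named because of this pattern and were chosen after their values were seen. Inside protein-coding genes lay those in Osbpl8, an oxysterol-binding protein gene (chromosome 10, 111216604 to 111217565, 32 reads in control 1 and 40 in control 2), Pcsk5, a proprotein convertase gene (chromosome 19, 17501486 to 17502769, 48 and 57 reads) and Gm9733 (chromosome 3, 15329392 to 15330637, 33 and 42 reads). A region in the pseudogene Speer8-ps1 had 62 and 43 reads. The others lay between genes, nearest to Gm19256, Gm12003 and Vmn2r115.

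Near the start of chromosome 9, a block of 38.6 kb held 26 members, more than any other cluster. It held 28 peaks in knockdown 2, 15 in control 1 and 11 in control 2 from position 2999865 to 3038507. Folds ran from 11.8 to 64.3 in knockdown 2, from 3.74 to 7.71 in control 1 and from 4.69 to 8.38 in control 2. Of the 27 control 1 peaks in the first 3.5 Mb of a chromosome or in the chromosome 2 block, 3 lay on a step of the fold ladder, and of the 21 in control 2, 0.

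Peaks called in 1 control alone and in no knockdown 2 list were mostly weak, but 2 of control 1 were among its strongest. Of the 683 such peaks of control 1, 11 had a score of at least 100, and of the 110 of control 2, 1 did. A peak in Ythdf1, which encodes a reader of methylated adenosine in RNA (chromosome 2, 180910271 to 180912551), had 450 reads, a fold of 12.2 and a score of 1184, and no other list called it. A peak in Fzr1, which encodes an activator of the anaphase-promoting complex (chromosome 10, 81369835 to 81371944), had 503 reads, a fold of 9.7 and a score of 1005, and knockdown size3 also called it. Neither lay on a step of the fold ladder. The next score among these was 178. Tra2a, a splicing factor gene on chromosome 6, held 2 of the 5 highest folds of control 1 alone, 9.99 with 39 reads and 9.26 with 50 reads. The highest folds of control 2 alone were 9.67 in a region 122417 bp from Gm32237 and 9.54 in a region 52665 bp from Frmd4a, both also called in knockdown 2.

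Of the 899 members, 392 (43.6%) overlapped a protein-coding gene. Summits lay inside such a gene for 61.9%, 41.0% and 59.7% of peaks in knockdown 1, 2 and size3 and for 43.8%, 40% and 51.8% in control 1, 2 and size3. Group means were 54.2% ± 11.5 in knockdown and 45.2% ± 6.04 in control libraries (SD, n = 3 each), a difference of 8.94 points within the spread of the libraries (p = 0.3 in an exact two-sided permutation test, adjusted p = 0.3 over 2 tests). It was 5.10 points without knockdown 1, 15.5 without knockdown 2 and 19.6 over peaks with a score of at least 100. Regions called in both controls were in a gene in 12 of 43 cases (27.9%), those of control 1 alone in 45.4% and those of control 2 alone in 44.0%.

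The members lay in 298 of 20556 protein-coding genes (1.45%), 262 with a control 1 peak, 60 with a control 2 peak and 24 with both. Knockdown 2 peaks lay in 6.89% of all protein-coding genes and in 138 of these 298 (46.3%), a share not adjusted for gene length. The genes were long, with a median of 151 kb against 17.6 kb over all protein-coding genes, and longer genes offer more room for a peak. A member was held by 4 of 7278 genes of up to 10 kb and by 54 of 215 genes over 500 kb (25.1%). Per Mb of gene, the number ran from 0.131 peaks in the shortest to 0.555 in the longest class. On chromosomes 5, 6 and 19, 157 of 3069 genes (5.12%) held a member, and on chromosomes 7 and 8, 4 of 3067 (0.130%).

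**Figure D5:**
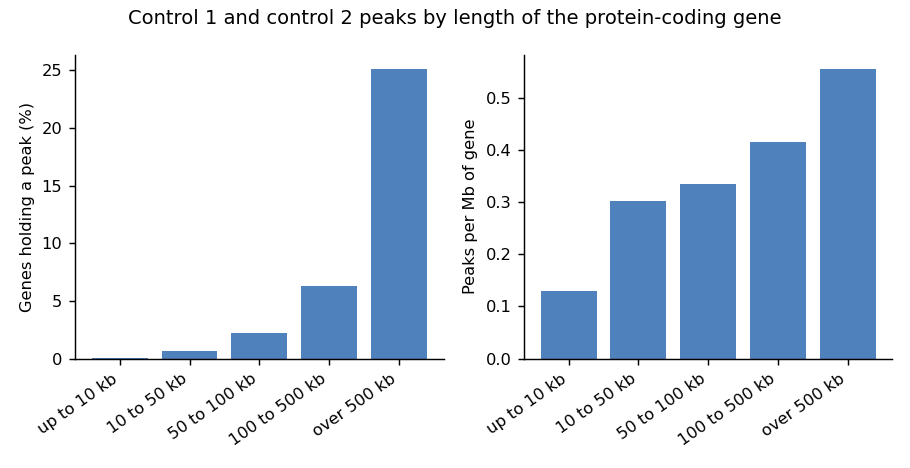
Protein-coding genes that hold a control 1 or control 2 peak (left, % of genes) and peaks per Mb of gene (right), by gene length (x axis). Genes over 500 kb stand at 25.1% and 0.555 peaks per Mb, and genes of up to 10 kb at 0.131 peaks per Mb.

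Genes with 3 or more members numbered 16. Ccser1 (chromosome 6, 61179960 to 62382863) held 6 control 1 peaks and 2 control 2 peaks. All 8 lay on a step of the fold ladder, with folds from 3.57 to 7.77 and 24 to 39 reads, and no knockdown 2 peak overlapped any of them. No control 1 peak in Ccser1 overlapped a control 2 peak. Emp2 held 6 members in 32.2 kb, none of them on a step. Further genes were Prkg1, a cGMP-dependent protein kinase gene, and Adgrl3, an adhesion receptor gene, with 4 each, and Ctnna2, which encodes a neural alpha-catenin, and Tafa2 with 3 each. Both of the Dock2 regions and the Ifit1bl1 gene, an interferon-induced family member with 3, also stood in this group.

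Within the gene lists fixed here for bone, Wnt signalling and the cytoskeleton, members were single cases. The lists are not complete. Held genes outside them, such as Btrc with 2 control 1 peaks, Nav3 with 3, and Wls and Cdk5rap2, were not counted. Of 44 genes of osteoblast differentiation and matrix, 1 held a member (2.27%), Ibsp, which encodes bone sialoprotein, with a control 1 peak of fold 4.28. Of 77 Wnt pathway genes, 2 did (2.60%): Tle4, a Groucho-type corepressor gene, with a fold of 5.35, and Rspo3, which encodes a secreted enhancer of Wnt signalling, with 4.64, both in control 1. Of 47 cytoskeletal crosslinker and plus-end genes, 2 did (4.26%): Utrn, which encodes utrophin, with a control 2 peak of fold 7.77 that knockdown size3 also called, and Ank2, an ankyrin gene, with a control 1 peak of fold 5. No member lay in Macf1 or within 5 kb of it. These shares stand beside 1.45% of all protein-coding genes, and each rests on 1 or 2 genes. The median gene length was 25.5 kb in the bone list, 33.0 kb in the Wnt list and 69.1 kb in the cytoskeletal list, against 17.6 kb over all protein-coding genes.

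Neural adhesion and synapse genes held a member in 16 of 73 cases (21.9%), and their median length was 599 kb, in the range where 25.1% of all protein-coding genes held one. Among them were Chl1, Grm7, a metabotropic glutamate receptor gene with a peak in each control, and Ctnna2 with a fold of 7.14. Of 1452 olfactory and vomeronasal receptor genes, 0 held a member; their median length was 0.951 kb. Zinc finger genes held one in 3 of 388 cases (0.773%), Zfp804b, Zfp472 and Zfp992. None of the 10 protein-coding Speer genes did, while 2 regions called in both controls lay in the pseudogene Speer8-ps1.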

How the data were processed

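The 6 deposited peak lists were used, each from 1 immunoprecipitate and its own input. The submitters' processing notes name cutadapt, Bowtie2 and the build GRCm38. MACS 1.4.2 made the lists, per the file headers, from alignments whose names call them unique, with the p cutoff at 1e-05, the band width at 300 bp and at most 1 read per position, so a library with many duplicates loses depth. Per the file headers, the deposited read counts are whole numbers of reads per peak. The deposited score is the log10 of the caller's p-value, times 10, with its sign changed. The deposited fold, a ratio, sets summit reads over the background. The deposited false discovery rate is in percent. Scores, folds and rates are the authors' own values per peak and were used within a list.

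From these files, peaks were overlapped by at least 1 bp, merged, and assigned to the 20556 protein-coding genes of the GRCm38.p6 RefSeq table on chromosomes 1 to 19 (Python 3.11.15, pandas 2.3.3, scipy 1.17.1). Table entries ending before 3 Mb were left out, since the assembly places no sequence there. Chromosome length was the end of the last annotated gene. Exons, introns and peak sequences were not analysed here. The genome-wide mean background was the smaller library of each pair times the fragment length over the genome size in the header. The 4 satellite and multicopy regions of an alternative were written down after the peaks had been seen. Libraries were compared by exact permutation over 20 assignments, with Benjamini-Hochberg adjustment, and overlap and permutation steps were tested on simulated data. The members, gene lists and chromosomes were chosen with earlier results of these data known. Genes were named by rule: the 10 best regions in both controls, the 5 highest folds of each control alone, the 3 highest folds on chromosomes 5, 6, 19, 7 and 8, genes with at least 3 peaks and up to 4 members per list. Results for 1 gene these rules name are not reported here.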

Additional observations from a re-analysis of the deposited data

Results flagged for a closer look

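Peaks of the same lists outside chromosomes 1 to 19 are a signal that the comparisons above did not use: 33 in control 1 and 38 in control 2. Unplaced scaffolds held 27 of them in control 1, with a median fold of 6.82, and 31 in control 2, with a median fold of 8.13. The X chromosome held 2 in each list, with folds from 16.5 to 21.1 in control 1 and from 17.1 to 22.3 in control 2.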

How the results depend on the processing

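Requiring a score of at least 100, or leaving out the first 3.5 Mb of each chromosome and 4 multicopy regions, lowered the shared counts. Regions called in both controls fell to 19 and 25, control 1 peaks overlapping knockdown 2 to 25 and 25, and control 2 peaks overlapping it to 17 and 22. Summits within 500 bp gave 40, 48 and 42.

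At a score of at least 100, the density ratio of chromosomes 5, 6 and 19 to 7 and 8 was 2.27 in knockdown 2 and 2.22 in knockdown size3. In control 1, control 2 and control size3, no such peak lay on chromosomes 7 and 8. The exact lower limits of their ratios were 1.49, 0.500 and 1.90 in this order, without upper limits. With 3 peaks in place of the 0 the ratios were 2.27, 1.01 and 2.78. The control 2 limit was below 1, so its strong peaks do not show an excess on chromosomes 5, 6 and 19. Counting peaks less than 100 kb apart once gave 1.19 in knockdown 1, 2.14 in knockdown 2, 1.12 in knockdown size3 and 6.34 in control size3. Knockdown 1 gave 0.925 without chromosome 5, 1.09 without 6 and 1.06 without 7. Knockdown size3 gave 1.57 without chromosome 6 and 1.30 without 19. Control 2, again with 3 peaks in place of 0, gave 8.08 without chromosome 7 and 9.08 without 8, as the bound from 0 peaks then covers less sequence. The exact lower limits were 6.40 and 7.19. Apart from that bound, the causes were not tested.

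Leaving out 1 library at a time gave 3.21 to 5.10 for the difference in log2 peak number and 5.10 to 15.5 points for the share of summits in genes. With the library number as a replicate block the differences were 4.21 and 8.94 points, each with an exact sign-flip p = 0.25, the smallest that 3 pairs allow; the labels do not say that a number marks a shared batch.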
